A study of Mus musculus with 33 samples.

Results

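The step from regression to rest in the natural hair cycle was examined in dorsal skin of C57BL/6 mice, as telogen (postnatal day P44, 3 arrays) against mid catagen (P41, 3 arrays). These 6 of the 33 arrays of the series were chosen by the day in their titles, with 1 mouse for each array, and in both groups replicate 1 was female and replicates 2 and 3 were male. All were wild-type animals without treatment, killed in the same afternoon window, and skin was taken whole from the upper middle of the back. The phases are those that the description of the series gives to each day by histology. The sample labels of P41 and P44 themselves carry the words early anagen, so the days were followed. Age and phase cannot be told apart, since the telogen mice were 3 days older.

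In catagen the lower follicle regresses, the matrix stops dividing, the shaft is sealed off as a club hair and the inner root sheath is shed. In telogen a short follicle remains, with the bulge and the hair germ resting beside the dermal papilla. Whole skin also holds epidermis, dermis, fat, immune cells and a striated muscle sheet, and in such bulk samples fewer cells of a type and less RNA per cell cannot be told apart. The keratins of the basal layer marked the tissue on each of the 6 arrays, with Krt14 signals between 15086 and 24361 and Krt5 signals between 22966 and 27288.

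Of 12867 genes, each read by 1 probe set, 909 (7.06%) changed at an adjusted p under 0.05 in limma, of which 562 (4.37%) were lower and 347 (2.7%) higher in telogen. Over all 26988 kept probe sets 5.88% were called, 3.88% lower and 2% higher. The excess of falls in number depended on the adjustment over these probe sets. In a fit of the 12867 genes alone, adjusted over them, 755 were lower and 731 higher. The falls were the larger changes. Their median size was 1.35 on the log2 scale, against 0.86 for the rises, and 83 genes fell over 16-fold where 0 rose as much. The median log2 difference over all genes was 0.09. Of the 347 genes that rose, 311 had their highest level of the 6 natural phases in telogen, and of the 562 that fell, 361 had their lowest there. Among all 12867 genes those counts were 4109 and 2549. The rises were also the less stable calls. When each array was left out in turn, 234 of the 562 falls and 17 of the 347 rises passed in all 6 fits, while all 909 kept their sign. At 3 arrays a group this number limits the precision. Signals under 34.6 were set to that floor, and where an array of the low group lay under it the difference is a bound.

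**Figure D1:**
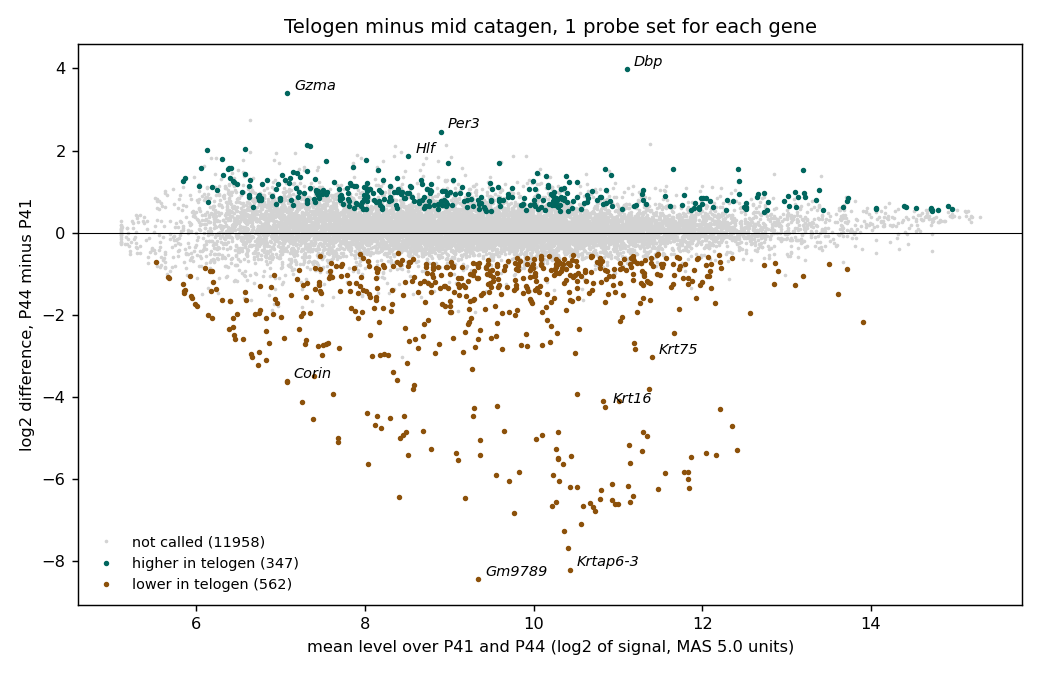
Log2 difference (P44 minus P41) of each of 12867 genes against its mean level over both groups in log2 signal, with 347 genes higher and 562 lower in telogen in colour. The falls reach beyond 16-fold at high levels, whereas 7 of the 347 rises exceed 4-fold.

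Array by array, the groups stood apart. The correlation of log2 signals between a P41 and a P44 array lay between 0.918 and 0.933, and within a group it lay between 0.955 and 0.980. Replicate 1 of P41 differed from the other 2 of its group in several gene groups. The summed signal of 29 macrophage genes was 113151 there and 75152 and 70725 in replicates 2 and 3, and that of 25 interferon-induced genes was 50066 against 35994 and 33465. That of 46 mitosis genes was 25649.5 against 18411 and 18391. Counts of these groups without it are given beside them below.

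The hair itself accounted for the largest falls. Keratin-associated proteins, which cross-link keratin filaments in the shaft, fell in 35 of 37 measured genes (4.37% of all genes fell), with a median of -5.99 on the log2 scale. Krtap6-3, of the high glycine and tyrosine kind, read 22731, 21483 and 24374 at P41 and 123, 78.8 and 46.8 at P44. It fell by 8.21 ± 0.34 (SE, adjusted p = 0.00033, n = 3 and 3). Krtap31-1 read 4274, 2464 and 3801 at P41 and 91.6, 90.3 and 67.2 at P44, and it fell by 5.38 ± 0.25 (adjusted p = 0.00049). For both genes the groups were far apart, and every telogen array sat near the floor. Krtap19-1 was at 2462, 3200 and 4220 in mid catagen and was under the floor on 2 telogen arrays, so its difference was -6.44 or lower. The remaining 2 genes, named after their values were seen, were Krtap12-1 (-1.92 ± 0.45, adjusted p = 0.064) and Krtap5-3, which was under the floor on 5 of the 6 arrays.

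Keratins and other proteins of the shaft fell in 21 of 22 genes, with a median of -4.86. Krt84, a keratin of the hair type, read 2472, 3680 and 5338 at P41 and 74.5, 71.3 and 89.7 at P44 (-5.55 ± 0.29, adjusted p = 0.00061). Krt81 read 14861, 10478 and 15200 at P41 and 570, 528 and 318 at P44 (-4.86 ± 0.27, adjusted p = 0.00083). Krt81, of the cortex, thus kept higher telogen signals than the floor by far, whereas Krt84 lay nearer to it. Padi4, which converts arginine to citrulline in proteins, fell by 2.63 ± 0.17 (adjusted p = 0.0014). The other member, Selenbp1, read 1895, 1068.5 and 1250 in telogen against 764 to 837 in mid catagen, and did not pass (adjusted p = 0.10).

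The inner root sheath, which moulds the growing shaft, split into 12 genes that fell and 6 that did not pass, of 18, with a median of -4.94. Tchhl1, a trichohyalin-like protein, read 16098, 14608 and 16454 at P41 and 136, 138 and 55.6 at P44 (-7.27 ± 0.36, adjusted p = 0.00061). Krt73 read 8724, 5204 and 8564 at P41 and 269, 225 and 114 at P44 (-5.26 ± 0.37, adjusted p = 0.0016). Padi1 and Crym, a deiminase and a thyroid hormone binding protein, fell by 5.28 and 5.02. All sheath keratins measured (Krt25 to Krt28 and Krt71 to Krt73) were among the 12. The 6 others were Cdsn, Ctsl, Tgm1, Cst6, Tgm3 and Gata3, of which the first 5 also serve the epidermis, and their differences ranged from -0.72 to 0.17. Together the 77 shaft, keratin-associated and sheath genes gave 2.15% to 2.59% of the summed signal at P41 and 0.202% to 0.236% at P44. When each array was left out in turn, the calls numbered 33 to 36 keratin-associated, 18 to 20 shaft and 11 to 12 sheath genes.

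**Figure D2:**
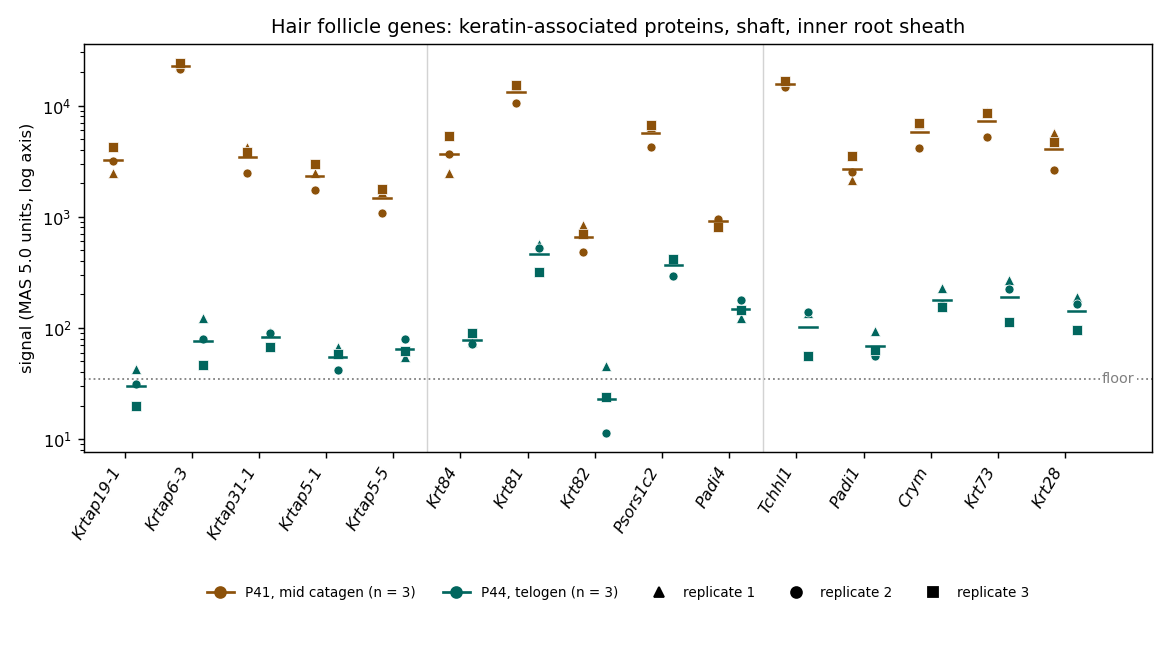
Signal of each array on a log axis for the 5 genes with the smallest p of the keratin-associated (left), shaft (middle) and inner root sheath (right) lists, with P41 in brown, P44 in green, symbols for replicates, bars for geometric means and a dotted line for the floor of 34.6. The groups are separate for all 15 genes, and the telogen arrays of 2 genes, Krtap19-1 and Krt82, reach under the floor.

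Hair transcription regulators fell in part, and by less than the shaft and sheath genes. Of 20 hair transcription regulators 9 fell and 0 rose, with a median of -0.83. Hoxc13, a homeobox factor that acts on hair keratin genes, read 1955.5, 1665.4 and 1637.5 at P41 and 352, 272.5 and 274 at P44 (-2.56 ± 0.15, adjusted p = 0.00099). Msx2 fell by 2.81 ± 0.23 (adjusted p = 0.0025). Foxn1, the nude gene, read 853, 611 and 941 at P41 and 159, 151 and 161.5 at P44 (-2.33 ± 0.18, adjusted p = 0.0021). Dlx3 fell by 2.17 ± 0.24 (adjusted p = 0.0062). Hr and Vdr, the hairless corepressor and the vitamin D receptor, both of which are needed after the first cycle, were lower by 1.36 ± 0.13 and 1.21 ± 0.12 (adjusted p = 0.0046 and 0.0044). For these genes the lowest mid catagen array stood above the highest telogen array. Lef1 (-0.73 ± 0.25, adjusted p = 0.14) and Ctnnb1 (-0.39 ± 0.11, adjusted p = 0.098) did not pass.

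Among the outer root sheath, bulge and germ genes 9 of 36 fell and 1 rose (2.7% of all genes rose), with a median of -0.40. Krt75, the companion layer keratin, read 7696, 6909 and 8672 at P41 and 928, 1005 and 896 at P44 (-3.04 ± 0.13, adjusted p = 0.0004). Krt16, a keratin of the outer sheath and of stressed epidermis, read 4240, 9290 and 10251 at P41 and 216, 412.5 and 664 at P44 (-4.25 ± 0.50, adjusted p = 0.0085). Krt6a, a partner of Krt16 in filaments, read 17495, 22515 and 23247 at P41 and 7683, 6629.5 and 7944 at P44 (adjusted p = 0.0056). Sox9 and Tbx1, transcription factors of bulge cells, fell by 1.64 ± 0.20 and 1.66 ± 0.17 (adjusted p = 0.0088 and 0.0055). Lgr5, a receptor of the lower bulge and germ, fell (adjusted p = 0.041), from between 1296 and 2347.5 to between 478.5 and 788. Lgr6, of the isthmus, rose by 0.88 ± 0.13 (adjusted p = 0.017), from between 456 and 548.5 to between 854 and 972. Other bulge genes were higher in separate groups without passing: Col17a1 (0.43 ± 0.11, adjusted p = 0.072), Cd34 (0.67 ± 0.22, 0.13) and Krt15 (0.25 ± 0.14, 0.32). Lhx2 was lower without passing (-0.90 ± 0.20, adjusted p = 0.054), and Nfatc1 overlapped between the groups. The 9 falls numbered 5 without P41 replicate 2 or P44 replicate 2 and 6 to 8 without another array, and the risers numbered 0 in 4 of the 6 fits. Krt75, Krt16, Krt6a, Sox9 and Tbx1 passed in all 6. Cxcl14, a chemokine of keratinocytes, also fell, from 4404.5, 5340 and 4212.5 to 1185, 1356 and 1134 (-1.92 ± 0.14, adjusted p = 0.002).

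Signalling genes were called in small numbers, mostly as falls. In the TGF-beta and BMP pathway 8 of 38 genes fell and 0 rose, with a median of -0.15. These were the ligand subunits Bmp8a and Inhbb, the receptors Bmpr1a and Bmpr1b, the inhibitors Smad6 and Bambi and the targets Id1 and Id4. Bambi, a decoy receptor, read 1952, 1283 and 1751 at P41 and 256, 269 and 197 at P44 (-2.78 ± 0.21, adjusted p = 0.002). Smad6, which blocks BMP signals within the cell, fell by 1.68 ± 0.12 (adjusted p = 0.0016). Inhbb, the activin beta B chain, fell by 1.58 ± 0.13 (adjusted p = 0.0028). Bmp2 and Bmp4 did not pass (-0.81 ± 0.22 and -0.84 ± 0.23, adjusted p = 0.089 for both). Of the 8 calls, 3 to 5 remained in number when 1 array was left out, and Smad6, Bambi and Inhbb passed in all 6 fits.

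In the Wnt pathway 2 of 39 genes rose and 2 fell, with a median of -0.15, near the shares of all genes (2.7% and 4.37%). Sfrp4, a secreted antagonist, read 920, 983 and 949 at P41 and 2227, 2082 and 2422 at P44 (1.24 ± 0.11, adjusted p = 0.0039). Sfrp2, of the same family, read 738, 982.5 and 955 at P41 and 1744, 2274 and 2307 at P44 (1.24 ± 0.18, adjusted p = 0.016). The receptors Fzd6 (-1.13 ± 0.19, adjusted p = 0.028) and Fzd3 (-0.74 ± 0.15, adjusted p = 0.046) fell. The Sfrp4 call held in all 6 fits without an array, whereas Sfrp2 was lost without replicate 2 or 3 of either day, and Fzd6 and Fzd3 without any array other than P41 replicate 1. In the hedgehog pathway 2 of 12 fell, with Shh, the ligand, by 0.82 ± 0.16 (adjusted p = 0.042) and Gli2, its effector, by 1.13 ± 0.17 (adjusted p = 0.019). The Shh call was lost in all 6 fits with 1 array left out, and that of Gli2 without replicate 2 or 3 of either day. The hedgehog list median lay between 0.008 and 0.087 in those 6 fits, and Disp1 was higher without passing (1.01 ± 0.24, adjusted p = 0.067).

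Of 32 FGF, EGF and IGF genes 4 fell and 1 rose, beside 4.37% and 2.7% of all genes. Their list median lay between 0.05 and 0.16 when 1 array was left out. Tgfa, a ligand of the EGF receptor, read 1844, 1512 and 1865 at P41 and 548, 504 and 644 at P44 (-1.62 ± 0.15, adjusted p = 0.0039). Fgf22 fell by 2.13 ± 0.40 and the receptor Fgfr3 by 0.77 ± 0.13 (adjusted p = 0.035 and 0.027). Fgf5, which ends hair growth, was already dim at P41, with 99.1, 55.3 and 74.0, and lay under the floor on all 3 telogen arrays, so that its difference was -1.10 or lower, while a second probe set gave 0.28 ± 0.25. Igfbp5, an IGF binding protein, rose by 0.86 ± 0.16 (adjusted p = 0.034). Of these 5 calls that of Tgfa held in all 6 fits without an array, Fgf22, Fgfr3 and Fgf5 were each lost in 4, and Igfbp5 in all 6. Among 22 dermal papilla genes 1 fell, near the share of all genes (4.37%). The list median lay between -0.17 and 0.08 when 1 array was left out. Corin, a protease of the papilla, read 490.5, 508 and 571 at P41 and lay under the floor on 2 of 3 telogen arrays, with a difference of -3.64 or lower (adjusted p = 0.0015).

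Dbp, a clock gene, had the largest rise of the genes read by 1 probe set. In the daily clock CLOCK and BMAL1 (Arntl) bind E-boxes and switch on Per, Cry, Rev-erb and PAR bZIP genes, of which Dbp, Tef and Hlf act on D-boxes, and the REV-ERB proteins in turn repress Arntl and Nfil3 through ROR elements. To show which members carry these letters near their start, the 250 bases upstream of each RefSeq start (GRCm38.p6) were searched. The E-box CACGTG and the D-box TTATGTAA were each read on both strands. An E-box stood in 4 of the 11 E-box and D-box list genes with a promoter in the table and a D-box in 1. Of 5 genes in the ROR element list 1 held an E-box. A common form of the ROR element was searched too and stood in 0 of the 11 and 0 of the 5 genes, and in 0.177% of all promoters. Of all 32851 promoters 6.02% held the E-box and 0.819% the D-box. The stretches around the matches of the measured genes are given 5′ to 3′ on the strand of the gene, with the motif in capitals.

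Ciart, chr3:95882257-95882354, minus strand, 3 E-boxes: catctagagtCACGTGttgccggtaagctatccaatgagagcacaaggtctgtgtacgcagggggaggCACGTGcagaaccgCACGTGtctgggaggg
Per3, chr4:151044806-151044880, minus strand, 2 D-boxes: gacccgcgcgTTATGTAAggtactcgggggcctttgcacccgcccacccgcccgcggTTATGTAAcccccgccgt
Tef, chr15:81802536-81802561, plus strand, 1 E-box: gctgtggctcCACGTGctgcagctgg
Tef, second start, chr15:81811266-81811291, plus strand, 1 E-box: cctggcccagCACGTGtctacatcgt
Per1, chr11:69098773-69098798, plus strand, 1 E-box: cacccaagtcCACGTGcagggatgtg
Cry1, chr10:85185099-85185124, minus strand, 1 E-box: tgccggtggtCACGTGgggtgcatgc

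The E-boxes of Ciart began 116, 58 and 44 bases before its start, and the D-boxes of Per3 205 and 158 bases before. Such a match is a description of the letters. Ciart, Per3 and Tef rose, while Per1 and Cry1, with the same E-box, did not pass, and Dbp, Hlf and Nr1d2 rose with 0 matches in their windows.

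Of the 12 measured E-box and D-box genes 7 rose and 0 fell, with a median of 1.66, and for all 12 telogen held the highest of the 6 phase levels. The study picked 7 of the 13 genes on the list from these samples, so the list is no independent evidence of its direction. Dbp read 1734, 195 and 232 at P41 and 6522, 6657 and 7013 at P44, a rise of 3.98 ± 0.81 (adjusted p = 0.044). The telogen mice lay close together, whereas replicate 1 of mid catagen stood over 7 times above the other 2, and without it the rise was 4.99 ± 0.14 (adjusted p = 0.00082). Without any one of the other 5 arrays the Dbp call was lost, at adjusted p of up to 0.13. Per3, a period gene, read 302, 131 and 196 at P41 and 1195, 1037.5 and 1030 at P44 (2.45 ± 0.30, adjusted p = 0.0093). Hlf read 199, 198 and 178 at P41 and 620, 703 and 769.5 at P44 (1.86 ± 0.13, adjusted p = 0.0016). Tef read 2452, 1374.5 and 1883 at P41 and 5512, 5065 and 5653 at P44 (1.55 ± 0.22, adjusted p = 0.015). In each of these the groups did not overlap.

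Ciart and Bhlhe40, repressors of CLOCK and BMAL1, rose by 1.78 ± 0.31 and 1.25 ± 0.18 (adjusted p = 0.029 and 0.015). Nr1d2, which encodes REV-ERB beta, rose by 1.54 ± 0.27 (adjusted p = 0.030). Its paralog Nr1d1 read 950.5, 478.5 and 217 at P41 and 1518, 1885 and 1645.5 at P44 and did not pass (1.86 ± 0.51, adjusted p = 0.086), nor did Per2 (2.14 ± 0.53, adjusted p = 0.069), although both groups were separate. Cry2 differed by 0.65 ± 0.21 (adjusted p = 0.12). Per1 and Usp2 overlapped between the groups, at 0.12 ± 0.22 and 0.03 ± 0.13. The calls on Per3 and Hlf held in each of the 6 fits that left out an array. The count of 7 was 8 without replicate 1 of P41, 3 without replicate 2 or 3 of P41, and 4, 3 and 2 without replicates 1, 2 and 3 of P44.

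Of the 5 ROR element genes 2 fell and 0 rose, with a median of -1.29. Arntl read 613, 948 and 783 at P41 and 311, 328 and 305.5 at P44 (-1.29 ± 0.18, adjusted p = 0.014), and a dimmer second probe set gave 0.09 ± 0.31. Nfil3, a repressor that competes for D-boxes, read 891, 1451.5 and 1619 at P41 and 390, 140 and 247 at P44 (-2.43 ± 0.41, adjusted p = 0.027). The mid catagen mouse with the highest Dbp had the lowest Arntl, Nfil3 and Clock of its group. Clock was lower by 0.45 ± 0.12 without passing (adjusted p = 0.087), and Npas2 and Cry1 overlapped. The Arntl call was lost without P41 replicate 3 or P44 replicate 2 or 3, and the Nfil3 call without P41 replicate 2 or 3 or P44 replicate 2 or 3. The hour at which each mouse was killed within the window is not in the labels, and its part was not tested.

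**Figure D3:**
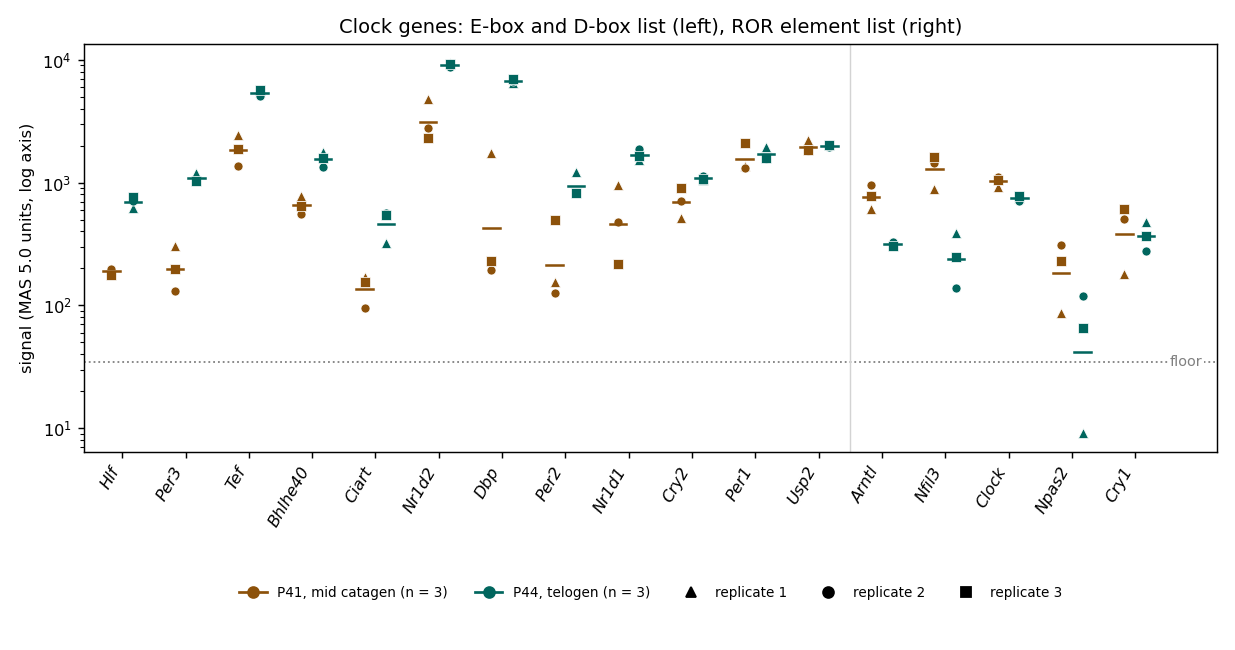
Signal of each array on a log axis for 12 E-box and D-box genes (left of the line) and 5 ROR element genes (right), with P41 in brown, P44 in green, symbols for replicates, bars for geometric means and a dotted line for the floor. The groups do not overlap for 10 genes on the left and 3 on the right, and the P41 triangle of Dbp stands high.

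Among the other tissues of skin striated muscle had the most calls. This tissue, which in the back lies beneath the dermis, had 13 of 35 genes higher and 0 lower, with a median of 0.59. All 35 differences were above 0 and 31 had groups that did not overlap, as did 22.7% of all genes in that direction and 14.2% in the other. Mb, myoglobin, read 4853.5, 4254 and 4876 at P41 and 8163, 10245 and 8516 at P44 (0.94 ± 0.14, adjusted p = 0.017). Ryr1, the calcium release channel, rose by 0.97 ± 0.16 (adjusted p = 0.023), and Tnnt3, fast troponin T, by 0.59 ± 0.11 (adjusted p = 0.034). The summed muscle signal was 383686 to 419128 at P41 and 574677 to 644467 at P44, so each telogen mouse was above each mid catagen mouse. The count of 13 fell to 4, 1 and 0 without replicates 1, 2 and 3 of P41 and to 3, 0 and 0 without those of P44, while the median stayed between 0.54 and 0.63. With each array centred on its median it was 3. Some genes of muscle energy supply in other lists were higher too. Cox7a1 and Cox8b, the muscle forms of cytochrome oxidase subunits, rose by 0.79 ± 0.12 and 0.80 ± 0.15 (adjusted p = 0.017 and 0.036). They were the 2 risers among 50 respiration genes, near the share of all genes (2.7%). Pfkm and Aldoa were among 4 risers of 18 glycolysis genes, with Ldhb and Slc2a4 the others. Without any 1 array the glycolysis risers numbered 0 and the respiration risers 0 or 1. The platelet-type Pfkp fell by 1.00 ± 0.12 (adjusted p = 0.0085). The part of muscle content in these results was not tested.

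In the cornified epidermis 3 of 35 genes rose (2.7% of all genes rose) and 0 fell, with a median of 0.53. These were late cornified envelope genes: Lce1m (0.99 ± 0.16), Lce1h (1.41 ± 0.26) and Lce1a1 (0.94 ± 0.19), at adjusted p of 0.023, 0.033 and 0.046. Loricrin (Lor) read 21377, 24890 and 23509 at P41 and 34664, 38075 and 31968 at P44 and missed the threshold (0.58 ± 0.13, adjusted p = 0.052). Flg, Krt1 and Krt10 did not pass (adjusted p = 0.43, 0.073 and 0.13). In the dermis 2 of 31 genes rose and 1 fell, beside 2.7% and 4.37% of all genes. Vim (0.58 ± 0.11, adjusted p = 0.033) and Dpt (0.62 ± 0.13, adjusted p = 0.046) rose. Col12a1, a fibril-associated collagen, fell by 1.28 ± 0.22 (adjusted p = 0.026). Col1a1 and Col3a1 overlapped between the groups. Each of these 6 calls was lost without at least 4 of the 6 arrays, left out one at a time.

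Fat showed small differences of the same kind. Of 21 genes of fatty acid and triglyceride synthesis 4 rose and 0 fell, with a median of 0.48. Of 27 adipocyte genes 2 rose (2.7% of all genes rose), with a median of 0.38. Scd1, the desaturase, read 19519, 18044 and 20348.5 at P41 and 30176, 29329 and 28248 at P44 (0.60 ± 0.11, adjusted p = 0.034). Dgat2, which completes triglycerides, rose by 0.64 ± 0.13 (adjusted p = 0.044) and Slc2a4, the insulin-regulated glucose carrier, by 0.67 ± 0.14 (adjusted p = 0.048). Slc2a4 was also counted among the glycolysis risers. The adipocyte genes Adipoq (0.30 ± 0.21, adjusted p = 0.43), Fabp4 (0.28 ± 0.11, 0.18) and Lep (-0.51 ± 0.37, 0.43) did not pass. The calls on Scd1, Dgat2 and Slc2a4 were each lost in all 6 fits with 1 array left out. In cholesterol synthesis 0 of 19 genes and in fatty acid oxidation 0 of 35 passed in limma, and 4 and 15 of them had an unadjusted p under 0.05.

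Immune genes included some of the larger rises. Lymphocyte markers rose in 4 of 15 genes and fell in 0, with a median of 0.89. Gzma, a granzyme of cytotoxic cells, read 43.9, 34.9 and 43.5 at P41 and 634, 440 and 276 at P44 (3.39 ± 0.31, adjusted p = 0.0036). Its mid catagen signals were next to the floor and its telogen signals were over 6 times higher on each array. Cd247, the zeta chain of the T cell receptor complex, rose by 1.43 ± 0.14 (adjusted p = 0.0044). Ccl5 and Il2rb rose by 2.13 ± 0.32 and 1.55 ± 0.25 (adjusted p = 0.017 and 0.023), with 1 P41 array of Il2rb under the floor. The calls on Gzma and Cd247 held in all 6 fits without an array, and the count of 4 was 2 without P41 replicate 3 or P44 replicate 1 or 2. Of the 31 list entries 16 had no probe set that could be used.

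Of 29 macrophage genes 4 rose and 0 fell, with a median of 0.89, and 28 had their highest phase in telogen. Csf1r, the receptor for the macrophage growth factor, read 6368, 8449.5 and 7498 at P41 and 18688, 14630 and 12780.5 at P44 (1.04 ± 0.19, adjusted p = 0.032). Ms4a7 rose by 1.38 ± 0.23 (adjusted p = 0.026) and Mpeg1 by 1.55 ± 0.29 (adjusted p = 0.034). The count was 13 without P41 replicate 1, 0 without P41 replicate 2 or 3 or P44 replicate 1 or 2, and 1 without P44 replicate 3. It was 16 with sex in the model, and the female mouse had the highest summed macrophage signal of both groups (182501 at P44, against 140438 and 118907). Interferon-induced genes had a median of 0.80, and 1 of 25 was called (2.7% of all genes rose). This was Irf1 (0.70 ± 0.12, adjusted p = 0.030), a call lost in all 6 fits with 1 array left out. Without P41 replicate 1 the interferon count was 6 with a median of 1.21, and without any other array it was 0, with medians from 0.50 to 0.92. The class II genes Cd74 and H2-Aa rose by 0.76 ± 0.13 and 0.97 ± 0.19 (adjusted p = 0.024 and 0.040), and Epcam of the same list, which epithelia and Langerhans cells share, fell by 1.06 ± 0.12 (adjusted p = 0.0082). The Cd74 call was lost without any array other than P41 replicate 1, H2-Aa in all 6 fits and Epcam without P41 replicate 2. Of 21 chemokines 4 rose (Ccl5, Ccl24, Cxcl1 and Cxcl10) and Cxcl14 fell. The 4 became 6 without P41 replicate 1, 1 and 0 without its replicates 2 and 3, and 2, 1 and 1 without replicates 1, 2 and 3 of P44.

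**Figure D4:**
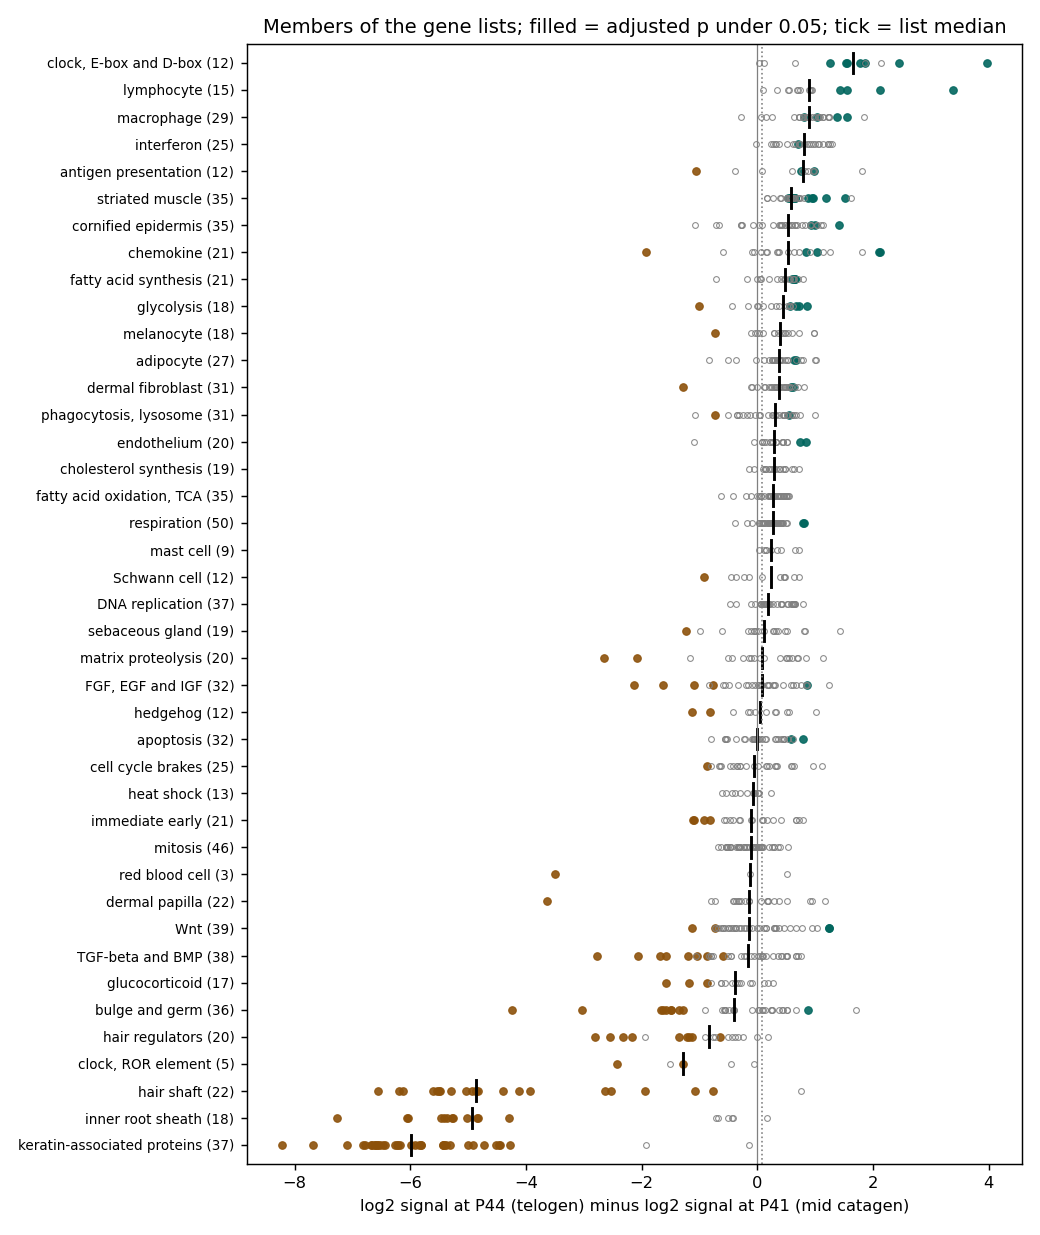
Log2 difference (P44 minus P41) of every measured member of 41 gene lists, ordered by list median (black tick), with the number measured in brackets, filled circles for an adjusted p under 0.05 and a dotted line at the median of all genes. The 3 hair lists lie below -4, the E-box and D-box clock list is at the top with a median of 1.66, and most others are within 1 of 0.

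Mitosis genes differed little. Of 46 genes 0 passed in limma or in the methods' t-test after adjustment and 1 had an unadjusted limma p under 0.05, with a median of -0.12. Of 37 replication genes 0 passed in limma and 6 had an unadjusted p under 0.05, with a median of 0.18. Without P41 replicate 1 the mitosis count was again 0, with a median of 0.10, and 4 replication genes rose, with a median of 0.42. At mid catagen the mitosis list already stood 1.88 below late anagen on the log2 scale, and at telogen it stood 2.00 below. Among 25 genes that brake the cycle 1 fell, near the share of all genes (4.37%). This was Cdkn1a, from 5933.5, 6390 and 7083 to 3155, 3963 and 3503 (-0.87 ± 0.14, adjusted p = 0.022). Its call was lost without P41 replicate 2 or 3 or P44 replicate 1 or 3. Immediate early genes fell in 4 of 21 (Egr1, Junb, Fosl2 and Egr2), with Egr1 at 5255, 5230.5 and 5543 against 2055, 2617.5 and 2821 (-1.11 ± 0.15, adjusted p = 0.013). Those 4 were 0 without P41 replicate 2 or 3, 1 without P44 replicate 3 and 2 without another array. Of 32 apoptosis genes 2 rose (2.7% of all genes rose) and 0 fell, and the list median lay between -0.01 and 0.08 when 1 array was left out. The risers were Casp12 (0.80 ± 0.12, adjusted p = 0.016) and Fadd (0.58 ± 0.12, adjusted p = 0.042), and for Fadd another probe set fell by 1.29 ± 0.16 (adjusted p = 0.0091). Casp1 (-0.53 ± 0.13, adjusted p = 0.076) and Bcl2l11 (-0.57 ± 0.15, adjusted p = 0.078) were lower without passing. The Fadd call was lost in all 6 fits without an array and that of Casp12 without replicate 2 or 3 of either day. Of 3 red cell genes Slc4a1, the band 3 anion exchanger, read 608, 549 and 633 at P41 and 69.5, 12.0 and 61.4 at P44 (-3.49 or lower, adjusted p = 0.0021), and Hbb-b2 and Alas2 overlapped between the groups.

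**Figure D5:**
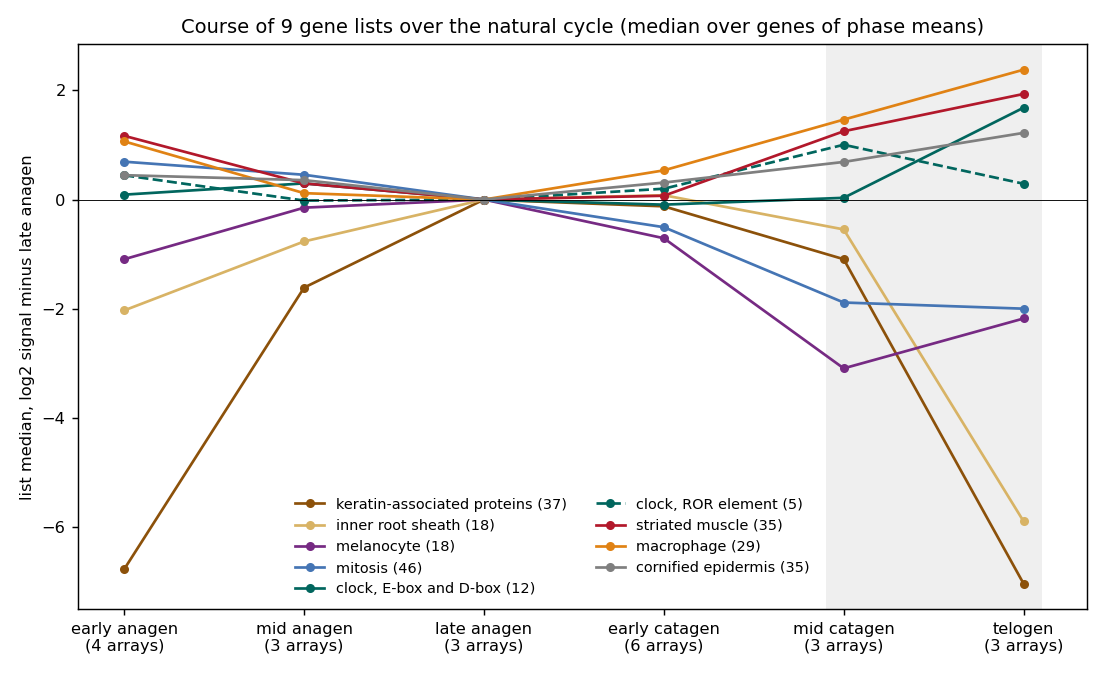
Median over the genes of 9 lists of the phase mean of log2 signal, minus that of late anagen (P29), along the 6 phases of the natural cycle, with the step described here shaded. The hair lists fall in the last step, the mitosis list (1.88 and 2.00 below late anagen) falls before it, and the E-box and D-box clock list rises in it.

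A turn at mid catagen was the step from P41 to P44 minus the step from early catagen (P37 and P39, 6 arrays) to P41. It was a difference between the steps, which need not be a change of direction. Krt28 changed by -2.30 up to P41 and by -4.84 after it, and its turn was negative. Tyr changed by -4.37 up to P41 and did not pass after it, and its turn was positive. Of 12867 genes 660 (5.13%) had a turn that passed, 387 (3.01%) negative and 273 (2.12%) positive. Both steps share the P41 arrays, so a high or low P41 mouse enters them with opposite signs. Without P41 replicate 2 or 3 the turns over all probe sets numbered 305 and 294 in place of 1185.

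Negative turns joined late hair genes to genes that peaked at mid catagen. Of the 37 keratin-associated genes 33 turned negative, with a median step of -0.80 from early to mid catagen before the fall. Krtap6-3 averaged 7860 in early catagen and 22863 ± 1450 (SD, n = 3) in mid catagen before it fell (turn -9.83 ± 0.62, adjusted p = 3.3e-05). Gm9789 averaged 1266 in early catagen and read 13987, 9914 and 12632 at P41, and all 3 telogen arrays were under the floor, the widest difference of all genes at -8.44 or lower. Krt16 averaged 1974 in early catagen, 7927 ± 3229 in mid catagen and 431 ± 225 in telogen (turn -6.15 ± 0.65, adjusted p = 0.0010).

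A mid catagen peak was also seen in 2 of 20 matrix protease genes, although the list median was near level over the step, at 1.09 above late anagen in mid catagen and 1.02 in telogen. Mmp11, stromelysin 3, averaged 380 in early catagen, read 1742, 3701 and 3353.5 at P41 and 420, 294 and 695 at P44 (turn -5.93 ± 1.15, adjusted p = 0.019). Adamts9 averaged 423 in early catagen and read 1174, 1254 and 1308.5 at P41 and 332, 224 and 341 at P44 (turn -3.72 ± 0.52, adjusted p = 0.0042). These were the 2 genes of the list that fell, and 0 rose. The Mmp11 fall was lost without P41 replicate 2 or 3 or P44 replicate 1 or 2. Sox9 and Inhbb turned by -2.24 ± 0.37 and -2.32 ± 0.27 (adjusted p = 0.0097 and 0.0016).

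The 6 largest positive turns were those of Tyr, Stra6, Tnni1, Pmel, Tyrp1 and Gzma, of which Tyr, Pmel and Tyrp1 are pigment genes. Stra6, a carrier of retinol into cells, averaged 1048 in early catagen and read 90.9, 13 and 52 at P41 and 75.3, 50.9 and 99.6 at P44. Its turn of 4.61 ± 0.66 (adjusted p = 0.0048) passed whichever of the 12 arrays was left out. Tnni1, slow troponin I, turned by 4.50 ± 0.92 (adjusted p = 0.024), with all 3 P41 arrays under the floor, and the call was lost without any 1 of them. Of 18 melanocyte genes 8 turned positive and 0 negative, but in the last step 0 rose and 1, Mitf, fell (-0.73 ± 0.14, adjusted p = 0.039). Tyr, tyrosinase, averaged 1421 in early catagen and read 90.3, 58.1 and 43.7 at P41 and 112, 83.4 and 66.8 at P44. Its turn was 4.85 ± 0.83 (adjusted p = 0.012), lost without P41 replicate 2 or 3, and its last step of 0.48 ± 0.31 did not pass. Pmel, of the melanosome fibrils, turned by 4.39 ± 0.77 (adjusted p = 0.013) in the same way, lost without P41 replicate 2, and the turn of Tyrp1 (4.25 ± 0.95, adjusted p = 0.035) was lost in 9 of the 12 fits that left out 1 array. Gzma turned through its rise, by 4.15 ± 0.98 (adjusted p = 0.042), a call lost in 8 of those 12 fits. Among the clock genes Hlf, Per3 and Bhlhe40 turned positive and Arntl, Nfil3 and Clock negative. The turn of Dbp, 4.47 ± 1.49, did not pass (adjusted p = 0.12).

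The remaining genes with the largest rises were of varied kinds. Neurod2, a neuronal helix-loop-helix factor, was under the floor on all 3 mid catagen arrays and read 144, 155 and 123 at P44, a rise of 2.02 or more (adjusted p = 0.0012). A dimmer probe set of Cotl1, which binds actin, read 214, 73.9 and 31.2 at P41 and 677, 682 and 715 at P44 (3.08 or more, adjusted p = 0.041), but the brightest probe set of the gene overlapped between the groups (0.66 ± 0.47, adjusted p = 0.43). Ccl24, an eotaxin, rose by 2.11 ± 0.34 (adjusted p = 0.023) and Ifi202b, an interferon-inducible gene, by 1.73 ± 0.25 (adjusted p = 0.017). Atp6v0d2, a subunit of the vacuolar proton pump, and Ms4a4b, a T cell membrane protein, rose by 1.78 and 2.04 or more, with 2 P41 arrays of each under the floor. The Neurod2 call held in all 6 fits that left out an array. Those of Cotl1, Ccl24, Atp6v0d2 and Ms4a4b were each lost in 5 of the 6, and that of Ifi202b in 4. Of the glucocorticoid-induced genes 3 of 17 fell (Angptl4, Cdkn1a and Map3k6), and of 9 mast cell and 13 heat shock genes 0 passed in limma, with 1 and 3 at an unadjusted p under 0.05. Among lists not described above, endothelium had 2 of 20 risers (Pdpn and Kdr), phagocytosis and lysosome 1 riser and 1 faller of 31 (Ctsh and Mfge8), Schwann cells 1 faller of 12 (Egr2) and the sebaceous gland 1 faller of 19 (Prdm1). Of all genes 2.7% rose and 4.37% fell. In these lists 0 calls passed in all 6 fits that left out an array. Egr2 was also counted among the immediate early genes. The Schwann genes Mag (0.63 ± 0.16, adjusted p = 0.077) and Pmp22 (0.46 ± 0.14, 0.10) were higher in separate groups without passing. So were Cnp (0.49 ± 0.17, 0.14) and Mbp (0.47 ± 0.16, 0.14), while Ncam1, Mal, L1cam and Gfra3 were lower and overlapped. The Schwann list median lay between 0.14 and 0.30 when 1 array was left out.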

How the data were processed

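RNA of whole dorsal skin was hybridized by the authors to Affymetrix mouse whole-genome arrays. The deposited values were linear intensity values (MAS 5.0 signals, version not given in the sources used here) of 45037 probe sets on 33 arrays, scaled to a like trimmed mean of about 497 to 498 and used as they stood. The members and lists were chosen with earlier results of these data known.

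Values under 34.6 (the 25th percentile over all arrays) were raised to it and put on the log2 scale. Probe sets over their array's median on 3 or more arrays were kept (26988). A gene was read by its brightest probe set with a single symbol (platform annotation), 12867 in all, since 34945 probe sets had 1 symbol, 932 several and 9160 none. Entrez identifiers matched 34741 symbols in RefSeq.

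P44 was set against P41 in a fit of these 6 arrays alone, since the study compares a phase only with its neighbour, and the turn in a fit of the 12 arrays of early catagen, mid catagen and telogen, with lmFit and eBayes (limma 3.58.1, R 4.3.3) and p-values adjusted over the 26988 probe sets by Benjamini and Hochberg. A call had an adjusted p under 0.05. The fits were tested on simulated data. Lists numbered 42 (951 distinct genes measured), the last one of sex-linked genes, which fitted the sex in the labels on all 6 arrays. Genes were named from the 12 largest rises and falls with groups that did not overlap, all clock genes, the 5 smallest p of each other list, the 6 largest turns each way and a few tissue markers. Others were named after their values were seen. Same-numbered mice did not deviate together (r = 0.026, 0.086 and 0.009), so no pairing was used.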

Additional observations from a re-analysis of the deposited data

How the results depend on the processing

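The 1586 probe sets called in telogen against mid catagen (539 higher, 1047 lower) became 2728 in a joint fit of all 33 arrays, 2904 in one of the 23 natural arrays and 2681 with an intensity trend and robust prior, and 813 by the methods' t-test after Benjamini-Hochberg adjustment or 2577 at its unadjusted threshold of 0.01. With the replicate number as a block they were 530, and the 1185 turns 782 and the 178 list genes called 108. Under that block the calls on Dbp (adjusted p = 0.081), Ciart (0.091), Nr1d2 (0.066), Arntl (0.051) and Nfil3 (0.087) were lost. The list genes called were 302 with the trend and 106 by the adjusted t-test. The turns were 1956 with a floor at the median and 1884 with the trend. Leaving out 1 array at a time gave 463 to 1370 calls, 294 to 1354 turns and 94 to 169 list genes, and the 463 came without P41 replicate 2. Median centring moved the share of higher calls from 34.0% to 17.3% (244 of 1409) and the median turn over all probe sets from 0.02 to -0.11. That share was 15.5% with the block, 46.7% with the trend and 49.2% with 1 probe set per gene. Counts under the other alternatives stayed within 1.5 times the counts over all probe sets. A fit of 1 probe set per gene, adjusted over the 12867 genes alone, called 1486 genes (731 higher, 755 lower). With adjustment over all probe sets 909 of these genes were called. Of 5559 recomputed values of named genes 655 lost the call, 294 gained it and 0 changed sign with a call. Depth is not defined for arrays, and 0.97% to 2.45% of kept probe sets per array lay under the floor.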
